A study of Rattus norvegicus with 6 samples.

Results

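Smooth muscle cells and myofibroblasts contract with their own set of actin and myosin proteins, and the genes for 10 of these proteins were followed here in RNA sequencing of palmitate-treated rat heart cultures. The set holds Acta2, Tagln, Cnn1, Myh11, Myl9, Tpm2, Cald1, Smtn, Lmod1 and Vcl. A member was read from the row of the count tables that carries its gene name, and all 10 were found, each in a single row, among 18077 rows. The cultures are labelled as neonatal rat cardiomyocytes, isolated from pups of 1 to 3 days, pre-plated and grown with BrdU to hold back fibroblasts. All of them were exposed for 24 h to palmitic acid (500 µM), a fat that loads cells with lipid, were infected with an adenovirus, and were harvested after 48 h. The 3 libraries labelled Ad-RNF128 carried a vector for RNF128, a transmembrane ubiquitin ligase, and the 3 labelled Ad-GFP a vector for green fluorescent protein. The treatment label of the Ad-GFP libraries reads WT. No label ties the replicates to separate animals or isolations, so the p-values reflect nothing but how far these samples lie apart, and that spread may be technical.

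In these cells thin filaments of alpha-smooth muscle actin slide along filaments of smooth muscle myosin when the regulatory light chain of myosin is phosphorylated. Tropomyosin, calponin and caldesmon bind along the actin filament, and vinculin ties filaments to the cell membrane. Many of these genes are textbook targets of serum response factor (SRF), which binds a short element called the CArG box together with the coactivators myocardin or MRTF. In the heart the set marks vascular smooth muscle and fibroblasts that have turned into contractile myofibroblasts, and newborn cardiomyocytes also express part of it.

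Library totals ran from 16352844 to 21708973 counts. The row of the rat gene Rnf128 did not show the labelled overexpression, with 1, 3 and 1 counts in the libraries labelled Ad-RNF128 and 0, 2 and 1 counts in Ad-GFP replicates 1, 2 and 3. Whether transcripts from the vector would be counted on this row was not tested. All directions below therefore rest on the labels. Ad-GFP replicate 1 stood apart from every other library, with Spearman correlations over all genes of 0.776 to 0.818, against 0.965 to 0.989 among the other 5, with 14.8% of its counts on ribosomal protein genes and 0.951% on the mitochondrial genome. Ribosomal protein genes took 5.18% to 5.52% in the libraries labelled Ad-RNF128 and 3.58% and 3.90% in Ad-GFP replicates 2 and 3, and the mitochondrial genome 3.08% to 3.32% in the libraries labelled Ad-RNF128 and 4.91% and 5.35% in Ad-GFP replicates 2 and 3. The part of these differences in the results was not tested. It is shown on its own for each of the 10 genes, and the tests were run both against Ad-GFP replicates 2 and 3 and with all 6 libraries.

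The contractile genes did not move as a block. Against Ad-GFP replicates 2 and 3, Myh11, Tpm2, Myl9 and Tagln rose, Cald1, Smtn, Acta2 and Vcl fell, and Cnn1 and Lmod1 did not pass the test. The changes were small apart from Myh11, which encodes the heavy chain of smooth muscle myosin and was 3.33-fold higher in mean CPM (a gene's count per 1000000 counts of its library). The test was edgeR's quasi-likelihood F-test over 13173 genes, all 10 members among them, with Benjamini-Hochberg adjustment and a threshold of 0.05. In this comparison 28.9% of all genes tested rose and 28.0% fell, 56.9% in all, so 4 members that rose and 4 that fell stand close to that background and are no result about the set. Myh11 alone rose at least 2-fold and no member fell by as much, against 8.37% and 3.79% of all genes, and 61.4% of all genes had an unadjusted p under 0.05. The median log2 change of the members was 0.10, and that of all genes tested was 0.01. Over all 6 libraries 0 of the 10 members and 0 of 12863 genes passed in edgeR, while 742 genes, or 5.77%, had an unadjusted p under 0.05, Myh11 and Smtn among the members. DESeq2 called 386 genes over the 6 libraries, Myh11 as the only member, and gave no adjusted p for Tpm2. Of the 8 members called without Ad-GFP replicate 1, 4 (Tagln, Myl9, Tpm2 and Vcl) had the opposite sign in the fit of all 6 libraries. The members together took 0.926%, 0.847% and 0.854% of the counts in the libraries labelled Ad-RNF128, against 0.925% and 0.983% in Ad-GFP replicates 2 and 3 and 0.690% in Ad-GFP replicate 1.

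**Figure D1:**
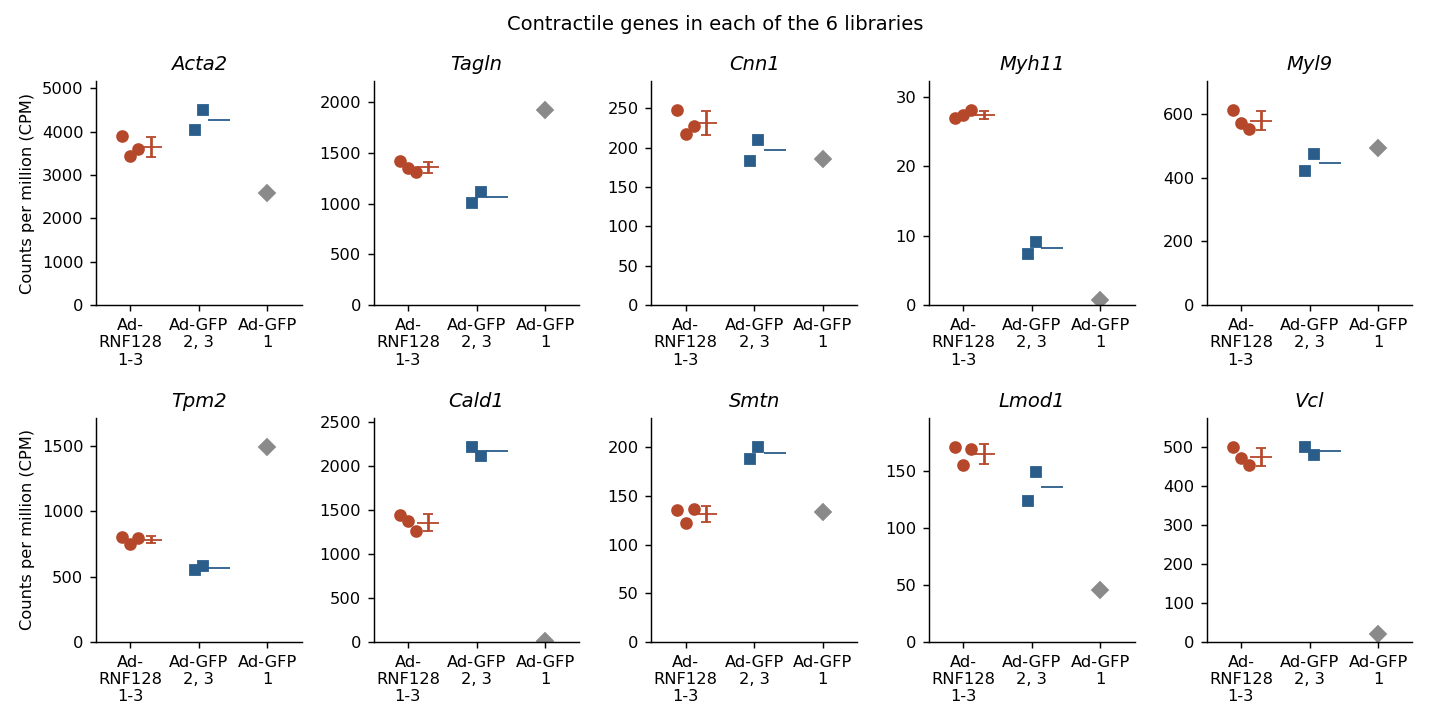
CPM (linear axes from 0) of each of the 10 genes in the 3 libraries labelled Ad-RNF128 (circles), Ad-GFP replicates 2 and 3 (squares) and Ad-GFP replicate 1 (diamond); horizontal marks are means, and the bar is the SD of the 3 libraries labelled Ad-RNF128. Myh11 sits near 27 CPM in those 3 libraries against 7.42 and 9.09 CPM in Ad-GFP replicates 2 and 3, and Cald1 and Vcl are near the floor in Ad-GFP replicate 1.

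The thick filament gene Myh11 had the largest change of the set. Myh11 (ENSRNOG00000057880) was at 27.0, 27.4 and 28.1 CPM in the libraries labelled Ad-RNF128 (mean 27.5 ± 0.58, SD, n = 3), at 7.42 and 9.09 CPM in Ad-GFP replicates 2 and 3, and at 0.795 CPM in Ad-GFP replicate 1. All 3 libraries labelled Ad-RNF128 lay above every Ad-GFP library. Its log2 change was 1.57 ± 0.11 (SE, edgeR adjusted p = 1.61e-08), and 1.99 ± 0.63 over all 6 libraries (edgeR adjusted p = 0.577). The value in Ad-GFP replicate 1 rests on 13 counts, with an exact 95% Poisson interval of 0.423 to 1.36 CPM, which covers counting error only. Myl9 (ENSRNOG00000020246) encodes the regulatory light chain of that myosin. It was at 611, 571 and 553 CPM in the libraries labelled Ad-RNF128, at 421 and 473 CPM in Ad-GFP replicates 2 and 3, and at 493 CPM in Ad-GFP replicate 1. Here too the libraries labelled Ad-RNF128 lay above every Ad-GFP library, by a smaller margin. Its log2 change of 0.22 ± 0.07 (edgeR adjusted p = 0.0224) was lost without Ad-GFP replicate 2 (0.11) or without Ad-RNF128 replicate 1 (0.19), and the adjusted p over its 12 alternatives ran from 0.000441 to 0.257. The log2 change of Myl9 over all 6 libraries was -0.39 ± 0.49, the opposite sign.

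Among the thin filament genes, the actin fell while the tropomyosin rose. Acta2 (ENSRNOG00000058039) encodes alpha-smooth muscle actin, the usual marker of myofibroblasts. It was at 3899, 3427 and 3605 CPM in the libraries labelled Ad-RNF128, at 4045 and 4491 CPM in Ad-GFP replicates 2 and 3, and at 2590 CPM in Ad-GFP replicate 1. The 3 libraries labelled Ad-RNF128 lay below Ad-GFP replicates 2 and 3 and above replicate 1. Its log2 change was -0.38 ± 0.08 (edgeR adjusted p = 0.000538), and -0.57 ± 0.36 over all 6 libraries (edgeR adjusted p = 0.681). Tpm2 (ENSRNOG00000016731), a beta-type tropomyosin that lies in the groove of the actin filament, was at 807, 751 and 795 CPM in the libraries labelled Ad-RNF128, at 555 and 583 CPM in Ad-GFP replicates 2 and 3, and at 1494 CPM in Ad-GFP replicate 1. It thus exceeded replicates 2 and 3 in every library labelled Ad-RNF128, but not replicate 1, which held the highest value of all. Its log2 change was 0.31 ± 0.07 (edgeR adjusted p = 0.00112), and -1.13 ± 0.81 over all 6 libraries (edgeR adjusted p = 0.712). Lmod1 (ENSRNOG00000051548), a leiomodin that nucleates actin filaments in smooth muscle, was at 171, 155 and 170 CPM in the libraries labelled Ad-RNF128, at 124 and 149 CPM in Ad-GFP replicates 2 and 3, and at 45.3 CPM in Ad-GFP replicate 1. The libraries labelled Ad-RNF128 exceeded every Ad-GFP library, yet Ad-GFP replicates 2 and 3 differed by 18.7% of their mean. The log2 change of Lmod1, 0.12 ± 0.09, did not pass (edgeR adjusted p = 0.258), and it was 0.29 and called without Ad-GFP replicate 3 (edgeR adjusted p = 0.0129) and -0.03 without Ad-GFP replicate 2, with an adjusted p over its 12 alternatives of 0.0108 to 0.776. With all 6 libraries the log2 change of Lmod1 was 0.23 ± 0.33.

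The promoter of Acta2 is shown because its SRF elements are the best known of the set. RefSeq windows of 250 bases before to 50 after the gene start (build GRCr8, whereas the counts were made on mRatBN7.2) were matched by symbol for 6 of the 10 members, in 7 entries, and Tagln, Myh11, Myl9 and Lmod1 had none. Both strands were searched for the exact CArG box, for a CArG-like form with 1 G or C among its 6 middle bases, and for the MCAT element CATTCC, and no match overlapped another. The 3 entries with a match are given 5′ to 3′ on the gene's strand, with the matches in capitals.
Acta2, chr1:241172454-241172753, minus strand: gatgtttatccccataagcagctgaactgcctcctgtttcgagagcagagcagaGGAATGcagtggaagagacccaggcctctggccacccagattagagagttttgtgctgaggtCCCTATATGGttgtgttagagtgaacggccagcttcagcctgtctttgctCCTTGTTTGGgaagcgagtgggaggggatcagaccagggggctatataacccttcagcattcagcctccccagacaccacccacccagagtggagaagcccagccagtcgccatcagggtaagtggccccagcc
Cald1, first of 2 entries, chr4:64233006-64233305, plus strand: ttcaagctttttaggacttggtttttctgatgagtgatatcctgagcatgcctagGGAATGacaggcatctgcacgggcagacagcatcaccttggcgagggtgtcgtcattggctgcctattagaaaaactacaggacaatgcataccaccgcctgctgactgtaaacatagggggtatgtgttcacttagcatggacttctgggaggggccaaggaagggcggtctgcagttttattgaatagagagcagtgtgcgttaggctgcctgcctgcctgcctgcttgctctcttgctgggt
Vcl, chr15:3404751-3405050, minus strand: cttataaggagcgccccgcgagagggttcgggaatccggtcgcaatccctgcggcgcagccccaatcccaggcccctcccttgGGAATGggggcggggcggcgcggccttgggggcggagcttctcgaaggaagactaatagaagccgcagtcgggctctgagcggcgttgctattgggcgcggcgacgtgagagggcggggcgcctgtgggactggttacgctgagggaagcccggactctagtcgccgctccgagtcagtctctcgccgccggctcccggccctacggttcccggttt

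Acta2 held 2 CArG-like matches, CCCTATATGG at 134 to 125 and CCTTGTTTGG at 84 to 75 bases before the start, and 1 MCAT match on the opposite strand. Cald1 and Vcl held 1 MCAT match each, and the windows of Cnn1, Tpm2 and Smtn and the other entry of Cald1 none. No exact CArG box lay in the 7 entries. Over all 33469 RefSeq windows 8.10% held a CArG-like match, 1.64% an exact CArG box and 14.2% an MCAT element. The matches are a description of these letters and no sign of binding.

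Of the proteins that bind along the actin filament, caldesmon and smoothelin fell. Cald1 (ENSRNOG00000010233) encodes caldesmon, which inhibits the myosin ATPase on actin and has smooth muscle and non-muscle forms. It was at 1442, 1376 and 1258 CPM in the libraries labelled Ad-RNF128, at 2219 and 2121 CPM in Ad-GFP replicates 2 and 3, and at 14.3 CPM in Ad-GFP replicate 1. The 3 libraries labelled Ad-RNF128 lay well below replicates 2 and 3, while replicate 1 was 152-fold below the mean of those replicates, the widest gap of the set. The log2 change was -0.83 ± 0.07 (edgeR adjusted p = 8.17e-08), and -0.26 ± 1.22 over all 6 libraries (edgeR adjusted p = 0.983). Smtn (ENSRNOG00000019451) encodes smoothelin, a cytoskeletal protein of contractile smooth muscle. It was at 135, 122 and 136 CPM in the libraries labelled Ad-RNF128, at 187 and 200 CPM in Ad-GFP replicates 2 and 3, and at 133 CPM in Ad-GFP replicate 1. Ad-GFP replicate 1 fell among the values labelled Ad-RNF128, and Ad-GFP replicates 2 and 3 were above all of them. Its log2 change was -0.72 ± 0.07 (edgeR adjusted p = 9.42e-07), and -0.98 ± 0.36 over all 6 libraries (edgeR adjusted p = 0.681).

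The calponin family members Tagln and Cnn1 were 1.28-fold and 1.17-fold higher in mean CPM in the libraries labelled Ad-RNF128 than in Ad-GFP replicates 2 and 3. Tagln (ENSRNOG00000017628) encodes transgelin, also called SM22-alpha, an actin-bundling protein and an early smooth muscle marker. It was at 1417, 1348 and 1308 CPM in the libraries labelled Ad-RNF128, at 1004 and 1116 CPM in Ad-GFP replicates 2 and 3, and at 1917 CPM in Ad-GFP replicate 1. As for Tpm2, the libraries labelled Ad-RNF128 lay above Ad-GFP replicates 2 and 3 and below replicate 1. The log2 change of Tagln was 0.20 ± 0.07 (edgeR adjusted p = 0.0262), and the call was lost without Ad-GFP replicate 2 (0.10) or Ad-RNF128 replicate 1 (0.19), with an adjusted p over its 12 alternatives of 0.00034 to 0.243. With Ad-GFP replicate 1 included the log2 change of Tagln was -0.85 ± 0.67, the opposite sign. Cnn1 (ENSRNOG00000027736) encodes the smooth muscle calponin, which inhibits actomyosin. It was at 247, 217 and 228 CPM in the libraries labelled Ad-RNF128, at 184 and 210 CPM in Ad-GFP replicates 2 and 3, and at 186 CPM in Ad-GFP replicate 1. All 3 Ad-GFP libraries lay below the libraries labelled Ad-RNF128. With edgeR's TMM scaling, which sets libraries level on the bulk of their genes, the log2 change of Cnn1 was 0.07 ± 0.08 (edgeR adjusted p = 0.458, and 0.0187 to 0.723 over its 12 alternatives), and over all 6 libraries it was -0.41 ± 0.44.

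Vinculin, the membrane anchor, changed least in CPM. Vcl (ENSRNOG00000010765) was at 499, 470 and 454 CPM in the libraries labelled Ad-RNF128, at 499 and 480 CPM in Ad-GFP replicates 2 and 3, and at 21.5 CPM in Ad-GFP replicate 1. The groups overlapped, with the highest of these 5 libraries 1.1-fold above the lowest, and replicate 1 stood 22.7-fold below the mean of Ad-GFP replicates 2 and 3. Its log2 change of -0.20 ± 0.06 (edgeR adjusted p = 0.0139) therefore rests on the scaling. With library totals alone it was -0.05 and not called (edgeR adjusted p = 0.527, and 0.000813 to 0.527 over its 12 alternatives). It was also not called without Ad-RNF128 replicate 2 (-0.18) or replicate 3 (-0.16), and over all 6 libraries the log2 change of Vcl was 0.30 ± 0.81, the opposite sign.

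**Figure D2:**
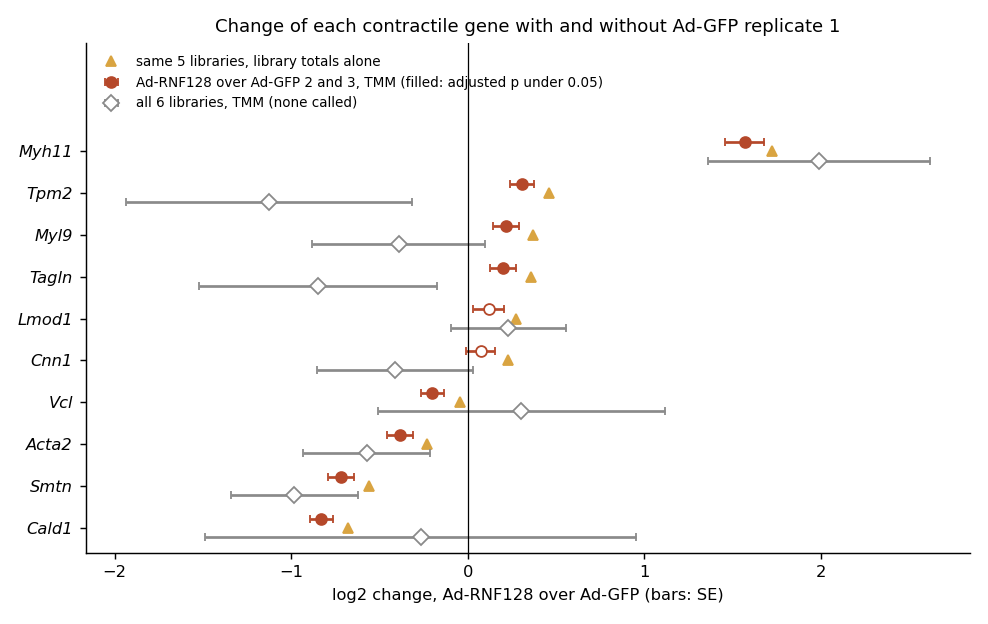
Log2 change of each gene, Ad-RNF128 over Ad-GFP, with SE bars on circles and diamonds: against Ad-GFP replicates 2 and 3 with TMM scaling (circles, filled where the edgeR adjusted p is under 0.05), the same 5 libraries with library totals alone (triangles) and all 6 libraries (open diamonds). The circles run from -0.83 (Cald1) to 1.57 (Myh11), every triangle lies to the right of its circle, and the diamonds have wide bars with no gene called.

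The scaling shifts all members together and so bears on the balance of rises and falls. TMM factors were 1.04 to 1.05 for the libraries labelled Ad-RNF128 and 0.955 and 0.921 for Ad-GFP replicates 2 and 3. With library totals alone the median log2 change of all genes was 0.17 instead of 0.01, 5367 genes rose and 2409 fell where TMM gave 3812 and 3689, and 6 members rose and 3 fell, Cnn1 (0.23) and Lmod1 (0.28) being called and Vcl not. No called member changed sign under either alternative scaling. In plain CPM, 6 members were higher in all 3 libraries labelled Ad-RNF128 than in Ad-GFP replicates 2 and 3 and 3 were lower, against 48.7% and 23.6% of all genes tested (72.3% in either direction). Set against all 3 Ad-GFP libraries, Myh11, Cnn1, Myl9 and Lmod1 were higher without overlap and none was lower, against 30.4% and 3.59% of all genes (34.0% in either direction). The calls of Myh11, Cald1, Smtn, Acta2 and Tpm2 held in all 12 alternative fits of the comparison without Ad-GFP replicate 1.

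Ratios within a library need no scaling, and they show how the members moved against each other. They are a description without a test, and the pairs were chosen with the counts in view. Tagln had 0.364, 0.393 and 0.363 counts per Acta2 count in the libraries labelled Ad-RNF128, 0.248 in both Ad-GFP replicates 2 and 3, and 0.740 in Ad-GFP replicate 1. The libraries labelled Ad-RNF128 averaged 1.50-fold more than Ad-GFP replicates 2 and 3, with no overlap. The corresponding fold was 1.61 for Tpm2, 1.52 for Myl9, 1.42 for Lmod1, 1.37 for Cnn1 and 3.92 for Myh11, each with no overlap with Ad-GFP replicates 2 and 3. Acta2 is the denominator of each and itself fell, which raises all these ratios, and no share over all genes was computed. In Ad-GFP replicate 1 the ratio lay above every library labelled Ad-RNF128 for Tpm2 (0.577), Myl9 (0.190) and Cnn1 (0.0717). It lay below all of them for Lmod1 (0.0175) and Myh11 (0.000307). Smtn and Cald1 were lower per Acta2 count, at 0.794 and 0.732 of the mean ratio in Ad-GFP replicates 2 and 3, and Vcl was at 1.13 of it. Caldesmon counts per transgelin count were 1.02, 1.02 and 0.962 in the libraries labelled Ad-RNF128, 2.21 and 1.90 in Ad-GFP replicates 2 and 3, and 0.00746 in Ad-GFP replicate 1. Cald1 supplied 14.7% to 16.3% of the members' counts in the libraries labelled Ad-RNF128, 24.0% and 21.6% in Ad-GFP replicates 2 and 3, and 0.208% in Ad-GFP replicate 1. Acta2 per Actb, the main cytoplasmic actin, overlapped between the libraries labelled Ad-RNF128 and Ad-GFP replicates 2 and 3, at 0.581, 0.528 and 0.531 in the libraries labelled Ad-RNF128, 0.523 and 0.542 in Ad-GFP replicates 2 and 3, and 0.826 in Ad-GFP replicate 1.

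**Figure D3:**
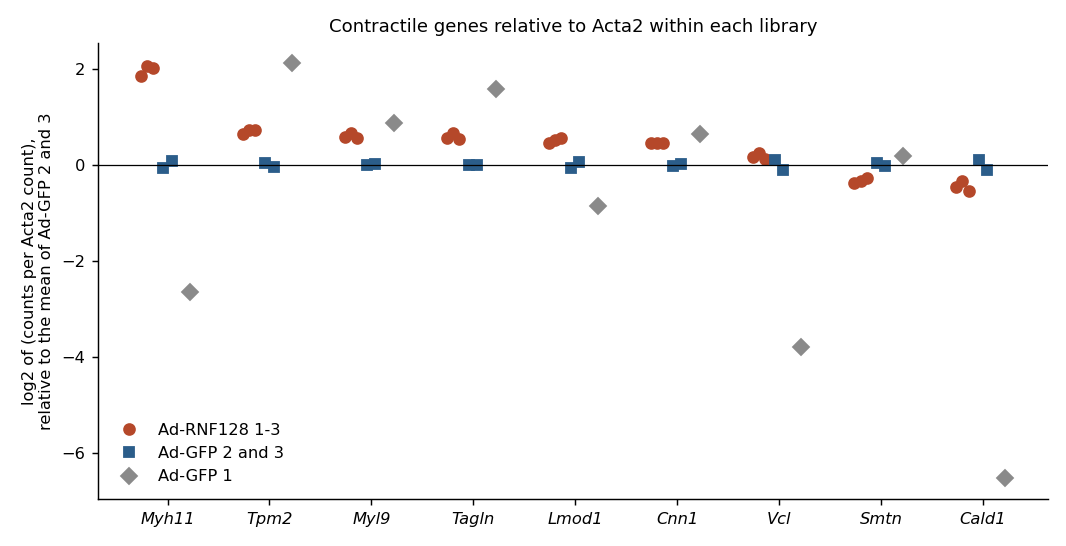
Counts of each gene per Acta2 count in the same library, as log2 relative to the mean of Ad-GFP replicates 2 and 3, for the 3 libraries labelled Ad-RNF128 (circles), Ad-GFP replicates 2 and 3 (squares) and Ad-GFP replicate 1 (diamond). The circles for Myh11, Tpm2, Myl9, Tagln, Lmod1 and Cnn1 lie above the squares and those for Smtn and Cald1 below, while the diamonds scatter over a far wider range.

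Ad-GFP replicate 1 did not shift the set in a single direction. Against the other 5 libraries it was the lowest for Cald1, Vcl, Myh11, Lmod1 and Acta2, the highest for Tagln and Tpm2, and within their range for Cnn1, Myl9 and Smtn. The median absolute log2 ratio of this library to the mean of replicates 2 and 3, on the log2(CPM + 1) scale, was 1.12 for the members and 1.86 over all genes tested. Among the other libraries the spread was small. The coefficient of variation over the 3 libraries labelled Ad-RNF128 was 2.10% for Myh11 and at most 6.86% (Cald1), and Ad-GFP replicates 2 and 3 differed by 3.96% (Vcl) to 20.2% (Myh11) of their mean.

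Related genes of the same families were compared next, since near-identical coding sequences could share reads. Of 24 listed relatives 23 had a row, 19 were tested, and against Ad-GFP replicates 2 and 3, 2 rose and 7 fell, with a median log2 change of -0.12. With library totals alone 3 rose and 5 fell. Among the actins, the enteric smooth muscle actin Actg2 rose by 0.37 ± 0.08 on the log2 scale, opposite to Acta2. It was at 701, 627 and 682 CPM in the libraries labelled Ad-RNF128, at 434 and 498 CPM in Ad-GFP replicates 2 and 3, and at 1237 CPM in Ad-GFP replicate 1, and its log2 change over all 6 libraries was -1.08 ± 0.81, the opposite sign. The cytoplasmic actin Actb had a log2 change of -0.42 ± 0.07 and the skeletal actin Acta1 -2.29 ± 0.20, while Actg1 (-0.10) and the cardiac actin Actc1 (-0.47) did not pass. Acta1 and Actc1 stood at no more than 17.5 CPM in any library, far under Acta2, and the sources used here do not say how reads shared between actins were counted.

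In most other families the member of the set had a higher log2 change against Ad-GFP replicates 2 and 3 than its tested relatives. Differences between genes were not tested, and Lmod1 (0.12) stood close to Lmod3 (0.10). Beside Tpm2, Tpm1 fell (-0.35 ± 0.07) and Tpm3 (-0.12) and Tpm4 (-0.10) did not pass. Beside Myl9, Myl12a, the non-muscle regulatory light chain, fell (-0.34 ± 0.06) and the essential light chain Myl6 did not pass (0.03). Beside Myh11, the non-muscle heavy chains Myh10 (-0.61 ± 0.06) and Myh9 (-0.17 ± 0.06) fell, and Myh14, at no more than 0.856 CPM in any library, did not pass (0.74). Beside Tagln, Tagln2 fell (-0.28 ± 0.06). The calponins were an exception, since Cnn3 rose (0.20 ± 0.06) whereas Cnn1 and Cnn2 (-0.06) did not pass. The actin filament cappers and nucleators Lmod3 (0.10), Tmod1 (-0.22) and Tmod3 (-0.04) did not pass. In Ad-GFP replicate 1 Tagln2 was at 3124 CPM, Myl12a at 764 CPM, Tpm1 at 199 CPM and Myh10 at 11.3 CPM, and over all 6 libraries Myh9 had the opposite sign (0.24 ± 0.60). Over all 6 libraries Tpm2 (-1.13 ± 0.81) was below Tpm1 (-0.02), Tpm3 (0.09) and Tpm4 (0.36). Lmod1 (0.23) was there below Lmod3 (0.66) and Tmod3 (0.50), whereas Myl9, Myh11 and Tagln stayed above their relatives. With library totals alone the calls of Tagln2 and Myh9 were lost and Myl6 was called as higher (0.19). Myh11 per Myh10 was 0.0764, 0.0794 and 0.0831 in the libraries labelled Ad-RNF128, 0.0157 and 0.0191 in Ad-GFP replicates 2 and 3, and 0.0703 in Ad-GFP replicate 1. The last ratio rests on 13 Myh11 counts, with an exact 95% Poisson interval of 6.92 to 22.2 counts. How near it lies to the libraries labelled Ad-RNF128 is therefore uncertain.

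**Figure D4:**
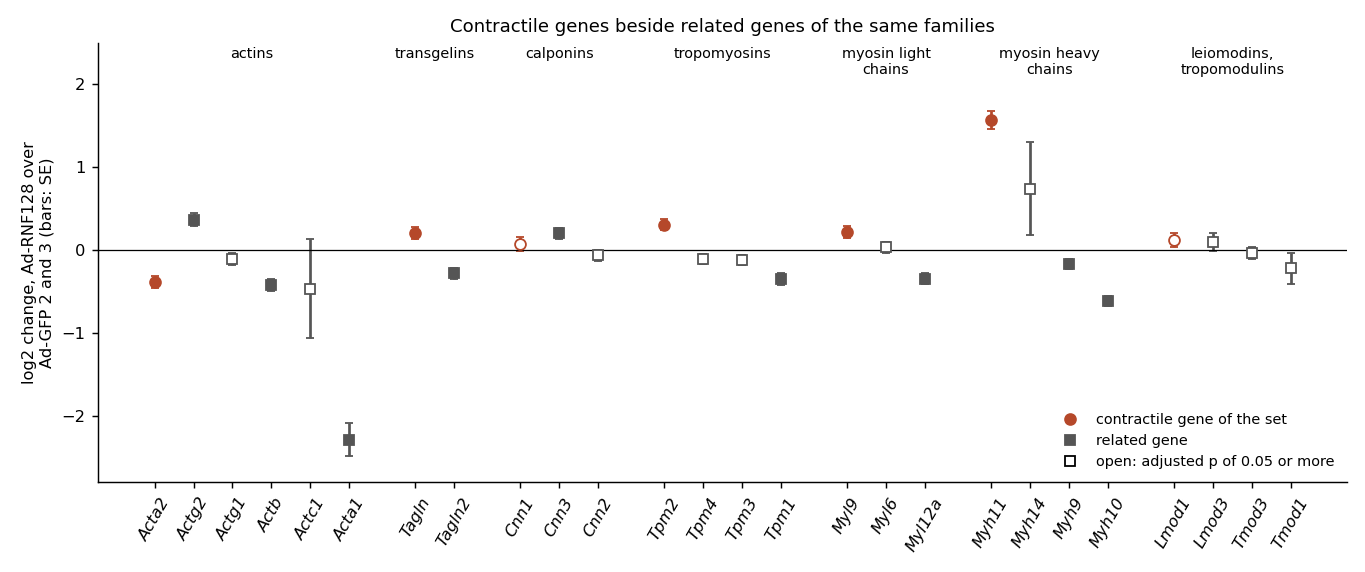
Log2 change against Ad-GFP replicates 2 and 3, with SE bars, of the contractile genes (circles) and of related genes (squares), by family; open symbols did not pass the test. Acta2 lies at -0.38 and Actg2 at 0.37 among the actins, and Myh11 at 1.57 stands above the other myosin heavy chains.

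The genes that control SRF and contraction showed mixed changes as well. For these lists, the relatives, the focal adhesion genes and the other smooth muscle genes, the median log2 change lay at or below 0 with TMM and above 0 with library totals alone. Of 12 SRF regulators tested 3 rose and 5 fell (4 and 3 with library totals alone), with a median log2 change of -0.06. Srf itself rose by 0.43 ± 0.07, its partner Fhl2, a LIM protein, rose by 1.16 ± 0.08, and the coactivator Myocd, which drives the smooth muscle program, fell by 0.44 on the log2 scale. Srf was at 153, 149 and 155 CPM in the libraries labelled Ad-RNF128, at 97.1 and 105 CPM in Ad-GFP replicates 2 and 3, and at 313 CPM in Ad-GFP replicate 1. Like Tagln, Tpm2 and Actg2, Srf was highest in Ad-GFP replicate 1 and lowest in Ad-GFP replicates 2 and 3. Acta2, Cald1, Vcl, Myh11 and Lmod1 were instead lowest in Ad-GFP replicate 1, where Cnn1, Myl9 and Smtn lay within the range of the other libraries. Over all 6 libraries the log2 change was -1.18 ± 0.87 for Srf, 0.02 ± 0.69 for Fhl2 and 0.10 ± 0.95 for Myocd, and Ad-GFP replicate 1 had 82.3 CPM of Fhl2 and 1.22 CPM of Myocd. Of 94 other listed genes called without Ad-GFP replicate 1 and tested in both fits, 28 had the opposite sign over all 6 libraries. Of 13 genes that set the phosphorylation of the myosin light chain 2 rose and 3 fell, 6 and 3 with library totals alone. Rock2, a kinase that inhibits the myosin phosphatase, rose by 0.43 ± 0.08, the phosphatase subunit gene Ppp1cb had a log2 change of -0.53 ± 0.06 and the kinase gene Pak1 -0.84 ± 0.06. In Ad-GFP replicate 1 Rock2 was at 1.65 CPM, Ppp1cb at 3.00 CPM and Pak1 at 16.2 CPM, and over all 6 libraries Ppp1cb had the opposite sign (0.04 ± 1.23). Mylk, the myosin light chain kinase, did not pass (0.00 on the log2 scale).

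Of 24 focal adhesion genes tested, the neighbours of vinculin, 11 fell and 5 rose, with a median log2 change of -0.06 (7 and 9 with library totals alone). The lowest p belonged to the tensin Tns1 (-0.71 ± 0.07), the parvin Parva (-0.67 ± 0.06) and the integrin Itga8 (-0.75 ± 0.09). Talin, Tln1, which recruits vinculin to integrins, had a log2 change of -0.51 ± 0.07. With Ad-GFP replicate 1 included the changes of Tns1 (-0.22 ± 0.76), Parva (-0.80 ± 0.32), Itga8 (-0.21 ± 0.97) and Tln1 (-0.62 ± 0.32) kept their sign without a call. Of 18 genes known to respond to TGF-beta or to SRF 12 fell and 5 rose, with a median of -0.34. The ligand genes Tgfb3 (-0.89 ± 0.06) and Tgfb2 (-0.79 ± 0.07) and the receptor gene Tgfbr2 (-0.76 ± 0.07) had the lowest p. Over all 6 libraries they were at -0.43 ± 0.69, -0.24 ± 1.07 and -0.40 ± 0.50 in the same order, none called.

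Of 15 other smooth muscle genes tested 6 rose and 7 fell, with a median of 0.00 (7 and 5 with library totals alone). Des, which encodes the intermediate filament desmin, was at 69.9, 66.7 and 68.5 CPM in the libraries labelled Ad-RNF128, at 7.70 and 8.63 CPM in Ad-GFP replicates 2 and 3, and at 106 CPM in Ad-GFP replicate 1. It rose by 2.91 ± 0.09 on the log2 scale against replicates 2 and 3 (edgeR adjusted p = 2.75e-12), while its log2 change over all 6 libraries was -0.50 ± 1.35. The matrix gene Npnt (-1.52 ± 0.06) and the calcium store gene Casq2 (-1.43 ± 0.07) fell. With all 6 libraries they were at -0.97 ± 1.04 and -0.86 ± 1.19, not called. Kcnmb1 and Ppp1r14a, which are typical of mature smooth muscle, stayed under 1 CPM in all 6 libraries and were not tested.

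The summed markers of other cell types, among them the labelled cardiomyocytes, differed between the libraries labelled Ad-RNF128 and Ad-GFP replicates 2 and 3. In each of these sums Ad-GFP replicate 1 lay outside the range of the other Ad-GFP replicates. The part of these markers in the results was not tested. In bulk RNA, fewer cells of a type and less RNA per cell cannot be told apart. Fibroblast markers, 14 genes, summed to 18986 to 20669 CPM in the libraries labelled Ad-RNF128, to 51265 and 53204 CPM in Ad-GFP replicates 2 and 3, and to 5226 CPM in Ad-GFP replicate 1. Of 12 tested 7 fell and 1 rose, with Col1a1 at -2.37 ± 0.07, Col1a2 at -1.82 ± 0.07 and Col3a1 at -1.62 ± 0.07 (-1.89 ± 0.77, -1.41 ± 0.63 and -1.07 ± 1.02 over all 6 libraries, not called), and Fap and Tcf21 stayed under 1 CPM in every library. Pericyte markers, 8 genes, summed to 532 to 564 CPM in the libraries labelled Ad-RNF128, to 708 and 713 CPM in Ad-GFP replicates 2 and 3, and to 159 CPM in Ad-GFP replicate 1. Of 7 tested 4 fell and 1 rose, Notch3 at -1.37 ± 0.12, Pdgfrb at -0.72 ± 0.07 and Abcc9 at 0.76 ± 0.08, and Rgs5 and Anpep were under 1 CPM throughout. With all 6 libraries Notch3 was at -1.82 ± 0.46, Pdgfrb at -0.38 ± 0.48 and Abcc9 at 1.27 ± 0.85, none called.

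The 18 cardiomyocyte markers together reached 171 to 286 CPM in the libraries labelled Ad-RNF128, 729 and 718 CPM in Ad-GFP replicates 2 and 3, and 363 CPM in Ad-GFP replicate 1. In every library this sum lay below the CPM of Acta2 alone and far below the fibroblast sum. These markers thus did not bear out the cardiomyocyte label, and which cells carried the members was not tested. Of the 18, Myl7 and Nppb stayed under 1 CPM in all 6 libraries, and Nppa, the atrial natriuretic peptide gene, was at 3.74, 2.72 and 0 CPM in the libraries labelled Ad-RNF128, at 3.49 and 3.33 CPM in Ad-GFP replicates 2 and 3, and at 3.97 CPM in Ad-GFP replicate 1 (log2 change -0.83, not called). Myh6, the cardiac alpha-myosin gene, was at 14.3, 10.8 and 0.104 CPM in the libraries labelled Ad-RNF128, at 13.4 and 11.1 CPM in Ad-GFP replicates 2 and 3, and at 16.0 CPM in Ad-GFP replicate 1. Nppa and Myh6 were thus at or near 0 in Ad-RNF128 replicate 3 alone. Of 16 tested 4 fell, 1 rose and 11 were not called. Tnnt2 (-3.12 ± 0.13), Tnnc1 (-1.56 ± 0.08) and Ttn (-1.98 ± 0.17) had the lowest p, and Gata4 rose (0.61 ± 0.09). Over all 6 libraries these 4 genes were at -2.60 ± 0.91, -1.72 ± 0.34, -1.72 ± 0.48 and -0.65 ± 0.74 in the same order, none called. Of 13 skeletal muscle markers tested 9 fell and 1 rose, with Myog at -2.61 ± 0.13, Tnnc2 at -1.51 ± 0.09 and Acta1 as above. With all 6 libraries Myog was at -2.20 ± 0.62, Tnnc2 at -1.79 ± 0.38 and Acta1 at -2.05 ± 0.48, none called. The sum of the skeletal muscle markers was 89.6 to 98.6 CPM in the libraries labelled Ad-RNF128, 210 and 226 CPM in Ad-GFP replicates 2 and 3, and 151 CPM in Ad-GFP replicate 1. Endothelial markers, 8 genes, summed to 7.01 to 8.19 CPM in the libraries labelled Ad-RNF128, to 5.48 and 4.97 CPM in Ad-GFP replicates 2 and 3, and to 6.73 CPM in Ad-GFP replicate 1. Leukocyte markers, 7 genes with a row, summed to 22.7 to 23.0 CPM in the libraries labelled Ad-RNF128, to 17.4 and 16.8 CPM in Ad-GFP replicates 2 and 3, and to 35.2 CPM in Ad-GFP replicate 1. Of the endothelial markers Vwf (0.51 ± 0.17) and Cdh5 (1.53 ± 0.58) rose, and Cdh5, Pecam1, Kdr, Tek, Tie1, Emcn and Erg were under 1 CPM in every library. Over all 6 libraries Vwf had the opposite sign (-0.25 ± 0.56) and Cdh5 was at 0.05 ± 0.91, neither called. Of 4 leukocyte markers tested Csf1r (2.24 ± 0.33) and Cd68 (1.41 ± 0.45) rose, Cd14 did not pass (0.09), and Adgre1, Ptprc and Aif1 were under 1 CPM. With all 6 libraries Csf1r was at 2.12 ± 0.37 and Cd68 at 0.845 ± 0.57, neither called.

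The genes most like the set as a whole were sought among 7103 named genes with a mean of at least 20 CPM. Likeness was the distance between a gene's centred log2(CPM + 1) values over the 6 libraries and the mean of the members' values. The closest were Cnksr3 (0.0552), Trim32 (0.0838), Polr3e (0.104), Mpzl1 (0.106) and Man2b1 (0.121). The members themselves lay between 0.231 (Lmod1) and 4.83 (Cald1) from their own mean, with Acta2 next after Lmod1 at 0.997. The main feature of the members' mean was the low value in Ad-GFP replicate 1, at -1.30, against 0.09 and 0.21 in Ad-GFP replicates 2 and 3 and 0.29 to 0.39 in the libraries labelled Ad-RNF128. Single members ran there from -5.62 (Cald1) to 0.93 (Tpm2). A low value in that library is not particular to the set. The median log2 ratio of Ad-GFP replicate 1 to the mean of replicates 2 and 3 was -0.63 for the members and -1.22 over all genes tested.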

How the data were processed

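PolyA RNA of 6 libraries was counted per gene. The submitters' processing notes name HISAT2, HTSeq 0.13.5 and mRatBN7.2, a rat genome build. Whether strand was used in counting is unknown from these sources, so reads of overlapping or antisense transcripts cannot be told apart (in the RefSeq gene table Cald1 and Lmod1 each overlap 1 long non-coding RNA gene). The deposited values are raw counts of reads per gene. The deposited table of Ad-GFP replicate 1 was handled as a column of estimated counts, as deposited, since 1 value, 344.5, is not whole, and was rounded. Of 18077 rows 106 repeat an ID and were kept as separate features. CPM is a count per 1000000 counts of its library.

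Tests used edgeR 4.0.16 in R 4.3.3 (filterByExpr, TMM, quasi-likelihood F-test, Benjamini-Hochberg over all genes tested, threshold 0.05), fitted on the whole table. The SE after ± was derived from the log2 change and its F statistic. Where only 2 controls enter, the spread is pooled over both groups. The members and the other 12 gene lists were chosen with earlier results of these data known, as was the decision to show Ad-GFP replicate 1 separately. Named were all members, all tested relatives, the 3 tested genes of each list with the smallest p and the 5 genes most like the set. Tln1, Mylk, Gata4 and markers at or near 0 were added for context. The alternatives comprised library totals alone, size factors by median of ratios, DESeq2 1.42.0, limma-voom (limma 3.58.1), no low-count filter, a stricter filter (10 counts in 3 libraries, mean CPM of 1), a replicate block, each library left out, an adjusted p under 0.01 and a log2 change of at least 1. Both fits were tested on simulated data made with known changes, all with a log2 change of at least 1 in size. The fit without Ad-GFP replicate 1 called most of them and the fit over all 6 libraries none. An absent call over all 6 libraries thus does not show an absent change. Smaller changes, like those of most members against Ad-GFP replicates 2 and 3, were not simulated. Each simulated gene had the same spread in every library, whereas in the data Ad-GFP replicate 1 alone stood apart.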

Additional observations from a re-analysis of the deposited data

How the results depend on the processing

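Of the 10 members, 8 passed against Ad-GFP replicates 2 and 3, and 5 with an adjusted p under 0.01 and 1 (Myh11) with a log2 change of at least 1; leaving out each library gave 6 to 9. Of all genes 7501 passed there, 6444 to 7125 with a library left out and 1601 with a log2 change of at least 1. The members' median of 0.10 was 0.25 with library totals alone and ran from -0.0393 to 0.25 with a library left out. Cnn1 and Lmod1, which were not called, ran from -0.0456 to 0.20 and from -0.0331 to 0.29, turning negative without Ad-GFP replicate 2. Over all 6 libraries 0 genes passed, 8 with library totals alone, 386 with DESeq2 and 14 with limma-voom, and 0 to 7501 with a library left out, the last without Ad-GFP replicate 1. Of the members 0 passed there, 1 with DESeq2 (Myh11, 1.88, adjusted p = 0.0125, with none given for Tpm2) and 0 to 8 with a library left out. Signs over all 6 libraries are not stable. With library totals alone Tagln was 0.013, Cnn1 0.26 and Myl9 0.32, and Cald1 was 1.09 with limma-voom and 0.56 with the replicate block. With a library left out Tagln ran from -1.17 to 0.20, Cnn1 from -0.62 to 0.073, Myl9 from -0.62 to 0.22, Tpm2 from -1.51 to 0.31, Cald1 from -0.83 to 0.15 and Vcl from -0.20 to 0.66; the cause was not tested. The replicate numbers did not pair the libraries (correlations of deviations of -0.17, 0.01 and -0.13 for numbers 1, 2 and 3 over all 6 libraries, and 0.0594 and 0.118 for numbers 2 and 3 without Ad-GFP replicate 1), and with the replicate block 8 members and 7795 genes passed against Ad-GFP replicates 2 and 3, and 0 over all 6. Depth limits Myh11 most, at 134 counts in Ad-GFP replicate 2 and 13 in replicate 1.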
